A study of Rattus norvegicus with 69 samples.

Results

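Sleep deprivation in a strange chamber joins the loss of sleep to the strangeness of the place, and the comparison described here asks what the first adds to the second. CA1, the output field of the hippocampus, was profiled from male Fischer 344 rats after 24 hours on platforms above water, the multiple-platform form of the flower pot method of sleep deprivation (24SD), and from rats kept for 24 hours in the same chambers with a rubberized metal grid laid over the platforms, so that they were not held from sleeping (24NES, the stress of the unfamiliar chamber). The methods describe no recording of sleep, so how much the 24NES rats slept is not known. The paper also states that procedures for inducing stress can cost sleep. Within cohort 1 there were 8 24SD and 10 24NES arrays, 18 of the 69 arrays of the series, each array from 1 animal. Home cage animals of the same cohort (HC, n = 5) and the pair of groups exposed for 72 hours (72SD, n = 8, and 72NES, n = 6) completed the fit. A second cohort, with 8 24SD and 12 HC arrays and no novelty group, gave a separate 24SD against HC comparison. All groups were young adults, with ages not set apart by group. In cohort 1 the SD and HC animals had learned a one-way active avoidance task before the exposure and NES animals are not named among them, so that training and sleep loss cannot be told apart in 24SD against 24NES. Nor can training and the exposure be told apart in 24NES against HC. The methods state, without data, that training had no noted effect on the arrays. SD animals shared a chamber in pairs of cage mates, the labels do not say which, and every test below takes animals as independent.

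Forced waking and exposure to a strange place share much of their physiology. Both raise corticosterone, the rat's main glucocorticoid, which enters neurons and glia and acts through the mineralocorticoid and glucocorticoid receptors on transcription, and both engage the immediate early genes, which neurons transcribe within minutes of activity. Sleep loss is further known for changes in clock genes, chaperones, RNA-binding proteins and genes of protein synthesis.

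The signals were MAS5 values, the Affymetrix summary of the perfect-match and mismatch probes of a probe set on a rat genome array. The comparison ran over the 7006 probe sets that name 1 gene, on the log2 scale, and differences are given as 24SD minus 24NES unless stated, each with its standard error (SE). Probe sets of the neuronal genes Thy1, Nrgn, Snap25 and Camk2a gave mean log2 signals of 15.25, 14.72, 14.52 and 10.07 over the 37 cohort 1 arrays at their brightest. Signals of different probe sets cannot be compared as levels, so that these values say only that neuronal transcripts gave signal, and Wfs1, a CA1 marker, has no probe set among the 7006. The summed signals of 11 cell type marker lists overlapped between 24SD and 24NES arrays. The astrocyte sum (18 genes) ran between 271614 and 332784 in 24SD arrays with a median of 299894, and between 238644 and 321924 in 24NES arrays with a median of 278456. Median signal per array was 450.2 ± 13.0 in 24SD and 458.0 ± 14.6 in 24NES (SD), the β-actin 3′/5′ ratio of the control probe sets 1.32 ± 0.15 and 1.35 ± 0.15, and neither differed by an exact permutation test, two-sided (p = 0.254 and 0.714).

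Features of the arrays touch the results. The 24NES array of animal 58 stood apart: the SD of its deviations from its group's means was 0.571, against 0.384 or less for the other cohort 1 arrays. The β-actin ratio fell into an upper and a lower set, at 1.25 or more and at 1.19 or less. The lower set held 2 of the 8 24SD and 3 of the 10 24NES arrays, 2 of 5 HC, 4 of 8 72SD and 3 of 6 72NES arrays. Values within these sets are given for some of the genes and lists that moved with the ratio.

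Across the transcriptome, 24SD and 24NES differed little. At an adjusted p of 0.05 (limma, Benjamini-Hochberg over 7006 probe sets) 1 probe set was called, 0.0143% of those tested, and it was higher in 24SD. At an unadjusted p of 0.05 there were 439 probe sets (6.27%), 178 higher (2.54%) and 261 lower (3.73%) in 24SD. For the 3503 brighter probe sets, those with a mean signal of 506.9 or more, the median standard error was 0.11 and the median size of the difference 0.08, against 0.12 for 24SD minus HC and 0.14 for 24NES minus HC. The contrasts with HC rest on 5 HC arrays and are less precise, which by itself makes such sizes larger, so that the 3 sizes are not on equal terms. Among the brighter probe sets 89.0% of the 95% intervals of 24SD minus 24NES lay wholly within 0.5 of zero on the log2 scale and 99.5% within 1. In the dimmer ones these shares were 25.0% and 71.3%, so that the differences of dim probe sets were known less precisely.

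The called probe set belonged to Sult1a1, the phenol sulfotransferase that attaches sulfate to phenols, among them catecholamines and drugs. It lies in the glucocorticoid-induced list, and no other gene of the 4736 on the array passed. The sequence around its start is shown because this is the gene on which the comparison turns (RefSeq, GRCr8, minus strand, chr1:190706063-190706362, 250 bases before to 50 after the annotated start). Capitals mark the letters AGAACA, one arm of the glucocorticoid response element, searched on both strands as AGAACA or TGTTCT.

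Sult1a1: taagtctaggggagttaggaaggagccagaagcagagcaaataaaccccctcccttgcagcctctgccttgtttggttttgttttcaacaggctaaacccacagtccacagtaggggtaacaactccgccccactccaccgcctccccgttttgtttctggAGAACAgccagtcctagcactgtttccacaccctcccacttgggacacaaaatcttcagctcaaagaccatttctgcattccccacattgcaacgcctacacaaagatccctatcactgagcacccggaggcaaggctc

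The window held 1 match, 89 bases before the start, and none to the E-box CACGTG. Of 33469 RefSeq promoter windows of this length, 20.7% held that arm and 6.42% the E-box, and a match is a run of letters, not a measured site.

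The signal of Sult1a1 (L19998_g_at) was 2926.6, 2320.3, 2774.5, 2323.8, 2429.1, 2830.4, 2119.5 and 2810.1 in the 8 24SD arrays. In the 10 24NES arrays it ran between 1029.8 and 2225.4 with a median of 1661.6, and in the 5 HC arrays between 1015 and 1418.8 with a median of 1299. All 8 24SD arrays lay above the 24NES mean, and the groups overlapped only through the lowest 24SD array, 2119.5, and the highest 24NES array, 2225.4, which is the array of animal 58. The difference was +0.63 ± 0.11 (SE, 95% interval 0.41 to 0.85, adjusted p = 0.00948 by limma), a ratio of 1.55. By limma the adjusted p was 0.0471 with only the 18 arrays in the fit and 0.04905 with the HC arrays added. When 1 of the 18 arrays was left out of the full fit it was at most 0.0452. The other Sult1a1 probe set (L19998_at) ran between 689.9 and 1264.7 in 24SD arrays with a median of 896.25 and between 506.9 and 762.3 in 24NES arrays with a median of 637.75. Its difference was +0.54 ± 0.13 and did not pass (adjusted p = 0.204).

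Against HC, Sult1a1 (L19998_g_at) rose by 1.03 ± 0.13 in 24SD (adjusted p = 1.65e-05) and stood 0.40 ± 0.13 higher in 24NES (adjusted p = 0.129). At 72 hours it was 0.29 ± 0.12 higher in 72SD than in 72NES (unadjusted p = 0.0268), and the 24-hour difference exceeded the 72-hour one by 0.34 with an unadjusted p of 0.0465 and an adjusted p of 0.895. In cohort 2, with no novelty group, 24SD exceeded HC by 0.82 ± 0.26 (unadjusted p = 0.00364; adjusted p = 0.372). There the groups overlapped, with 1141.4 to 4807.2 in 24SD arrays and 993 to 3113.3 in HC arrays, and 2 of the 8 24SD arrays lay at 1141.4 and 1197.7. Within the arrays of the upper β-actin set (6 24SD and 7 24NES) the difference was +0.52 and no longer passed (adjusted p = 0.0854), and within the lower set (2 and 3 arrays) it was +0.88. With the ratio as a block it was +0.62 (adjusted p = 0.00306). The call was also lost without 4 arrays (+0.55, adjusted p = 0.0975 by limma). They were the 24SD and 24NES arrays with the highest scores on the second component of within-group variance.

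**Figure D1:**
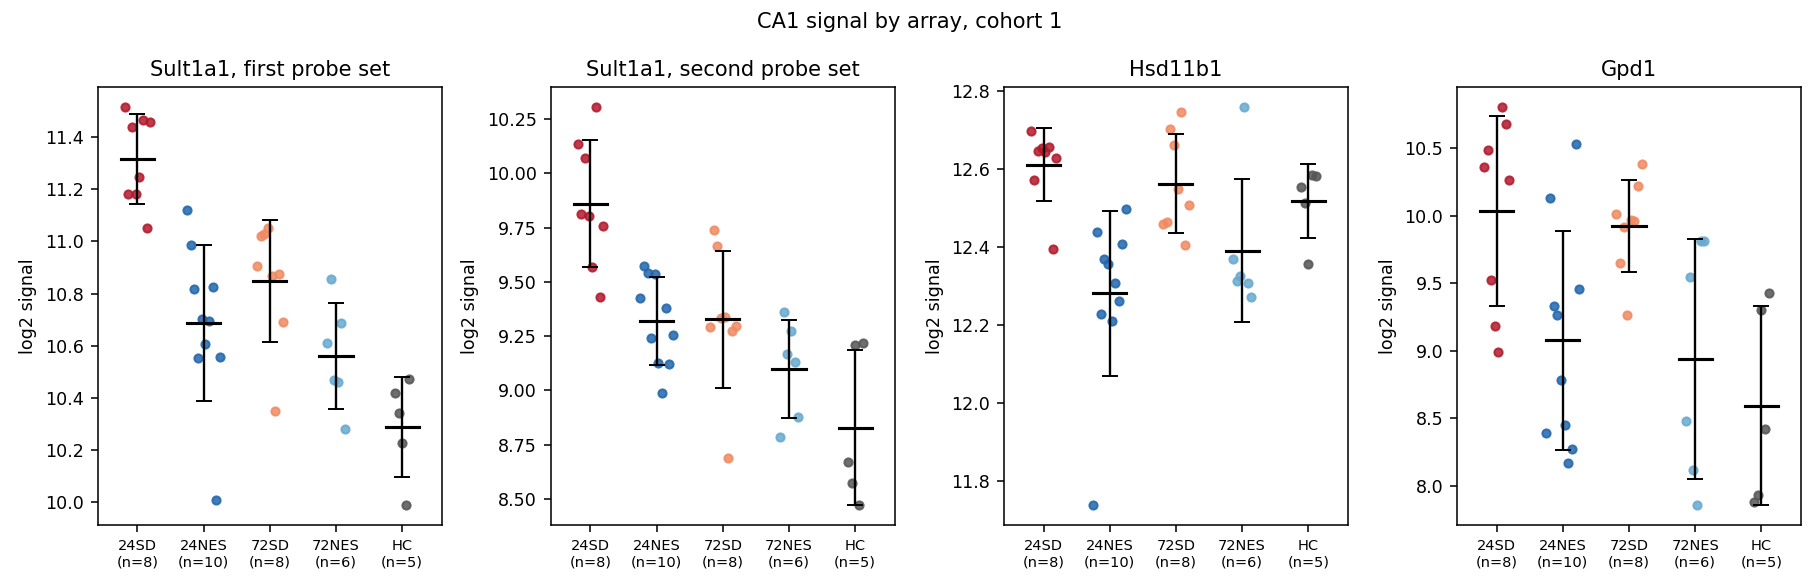
Log2 signal (vertical axis) of both Sult1a1 probe sets (first L19998_g_at, second L19998_at), Hsd11b1 and Gpd1 in each cohort 1 array, by group. Points are arrays, wide bars group means and error bars SD. The 8 24SD arrays of the first Sult1a1 probe set sit between 2119.5 and 2926.6 in signal units, while the 24NES arrays reach down to 1029.8.

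Corticosteroid handling supplied the gene ranked next among the brighter probe sets. Hsd11b1, the enzyme that regenerates active corticosterone inside cells, was 5384.2 to 6639.4 in 24SD arrays with a median of 6396, 3414.2 to 5780.5 in 24NES arrays with a median of 5149.9, and 5237.1 to 6135.6 in HC arrays with a median of 6008.7. All 8 24SD arrays lay above the 24NES mean, and the 24NES group, not the 24SD group, was the one farther from HC. The difference was +0.33 ± 0.08 (adjusted p = 0.177), and +0.27 without the array of animal 58, the lowest of all. Within the upper and the lower β-actin set it was +0.42 and +0.09. Among the 20 probe sets of receptors, binding proteins and transporters of the axis, 2 were higher and 1 lower (Abcb1b) at an unadjusted p of 0.05. That is 15%, against 6.27% over all probe sets. The higher were Hsd11b1 and Fkbp4, a co-chaperone of the receptors (+0.31 ± 0.12 at 1 of its 3 probe sets). The receptors themselves did not reach an unadjusted p of 0.05. Nr3c2, the mineralocorticoid receptor, gave -0.04 ± 0.10 and +0.06 ± 0.18 at its 2 probe sets. Nr3c1, the glucocorticoid receptor, gave -0.18 ± 0.16 at its brightest, a value too imprecise to place it near zero.

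The glucocorticoid-induced list was written with earlier results of these data known. Of its 28 probe sets (14 genes), 6 were higher and 0 lower at an unadjusted p of 0.05. That is 21.4%, against 6.27% over all probe sets, and the median was +0.08 against -0.01 over all 7006. Those 6 come from 3 genes. Besides Sult1a1 they were Glul, the astrocytic glutamine synthetase, with 3 of its 4 probe sets, and Gpd1, glycerol-3-phosphate dehydrogenase. Glul (rc_AI232783_s_at) ran between 18444 and 23879 in 24SD arrays with a median of 22712, between 13636 and 24021 in 24NES arrays with a median of 18297, and between 20538 and 25021 in HC arrays with a median of 22523. Here too 24SD lay with HC and 24NES below both, and the difference was +0.27 ± 0.08 (adjusted p = 0.54). Gpd1 ran between 507.9 and 1787.7 in 24SD arrays with a median of 1272.7, between 287.1 and 1476.3 in 24NES arrays with a median of 526.9, and between 235.1 and 689.4 in HC arrays with a median of 343. The groups overlapped over most of their range, and the difference of +0.96 ± 0.32 did not pass (adjusted p = 0.58). At 72 hours the Gpd1 difference was +0.99 ± 0.36 (72SD minus 72NES; unadjusted p = 0.00972). Over the whole list 16 probe sets were positive and 12 negative, and within the lower β-actin set the median was -0.09. Among the members that did not pass at an unadjusted p of 0.05, Dusp1, a phosphatase that stops MAP kinases, was at -0.28, -0.21 and -0.10 at its 3 probe sets, and Klf9, a zinc-finger factor, at -0.05 and -0.04. Sgk1, the serum and glucocorticoid-regulated kinase, was called in 24SD against HC (+0.81 ± 0.18, adjusted p = 0.0281), was 0.52 ± 0.17 above HC in 24NES (adjusted p = 0.143), and differed by +0.29 ± 0.15 between 24SD and 24NES (adjusted p = 0.813).

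Beyond Sult1a1 no gene passed, and the 10 genes in each direction with the smallest p among the brighter probe sets are given as values. Those higher in 24SD were, after Sult1a1 and Hsd11b1, the mitochondrial ATP synthase subunits Atp5f1d (+0.36 ± 0.09) and Atp5f1e (+0.32 ± 0.09), the small heat shock protein Cryab (+0.41 ± 0.11), the tautomerase Ddt (+0.18 ± 0.05), the LIM protein Crip2 (+0.30 ± 0.08), the amino acid transporter heavy chain Slc3a2 (+0.27 ± 0.08), the complement component C1qb (+0.30 ± 0.09) and the apolipoprotein Apoc1 (+0.22 ± 0.06). Adjusted p lay between 0.177 and 0.488 for these 9. Those lower were Mtdh (-0.41 ± 0.10), the chloride/proton exchanger Clcn3 (-0.32 ± 0.08), the phospholipid transporter Abcb4 (-0.38 ± 0.10), the cold-inducible RNA-binding protein Cirbp (-0.38 ± 0.11), the actin-nucleating subunit Arpc1b (-0.30 ± 0.08), the transferrin receptor Tfrc (-0.46 ± 0.13), the isocitrate dehydrogenase Idh1 (-0.25 ± 0.08), the synaptic pentraxin Nptx2 (-0.19 ± 0.06), the phosphofructokinase Pfkp (-0.21 ± 0.07) and the cathepsin Ctsk (-0.35 ± 0.11), with adjusted p between 0.223 and 0.543. Of the 11 named genes with a second probe set, 9 had the same sign at both, and Idh1 and Nptx2 did not. Each of the 20 kept its sign within the upper and within the lower β-actin set, but the sizes of several differed between the sets. In the upper and the lower set the differences were +0.31 and +0.65 for Cryab, +0.33 and +0.09 for Slc3a2, +0.42 and +0.22 for Atp5f1d and +0.24 and +0.50 for C1qb. They were -0.44 and -0.22 for Cirbp, -0.24 and -0.04 for Nptx2, -0.47 and -0.16 for Abcb4, -0.34 and -0.18 for Arpc1b and -0.24 and -0.57 for Clcn3. For Tfrc they were -0.39 and -0.64.

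The HC arrays can be set beside these differences. In 12 of the 20 genes the 24SD mean lay nearer to HC than the 24NES mean did. Of these, 6 were among those higher in 24SD and 6 among those lower, and in the other 8 genes the 24NES mean lay nearer. Both differences share the HC arrays and are set side by side as values. The 20 were picked by their 24SD and 24NES values, and the share over all probe sets was not counted. Over the brighter probe sets the median size was 0.12 for 24SD minus HC and 0.14 for 24NES minus HC, so 12 of 20 is a description only. The 24SD and HC animals were trained and NES animals are not named as such, so that nearness to HC cannot be told apart from training. Cryab shows the second kind. It ran between 2036.7 and 3217.2 in 24SD arrays with a median of 2815.4, between 1453.5 and 2514.1 in 24NES arrays with a median of 2120.8, and between 1392.2 and 2342.5 in HC arrays with a median of 1707.7. It was called in 24SD against HC (+0.58 ± 0.13, adjusted p = 0.0372) and not in 24NES against HC (+0.17 ± 0.13, adjusted p = 0.59). In cohort 2 it was 0.52 ± 0.17 higher in 24SD than in HC (unadjusted p = 0.00353), while at 72 hours 72SD minus 72NES was +0.01 ± 0.12. Its other probe set (M55534mRNA_s_at) did not share the pattern: it gave +0.16 ± 0.15 for 24SD minus 24NES, +0.56 ± 0.18 for 24SD minus HC and +0.40 ± 0.17 for 24NES minus HC.

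Cirbp behaved as the mirror case. It ran between 674.4 and 1099.2 in 24SD arrays with a median of 936.8, between 879.3 and 1611.3 in 24NES arrays with a median of 1192.6, and between 1109.9 and 1539.3 in HC arrays with a median of 1341. No 24SD array reached the lowest HC array. Against HC it fell by 0.55 in 24SD (SE 0.13, adjusted p = 0.0429) and was 0.17 ± 0.12 lower in 24NES (adjusted p = 0.583), but in cohort 2 the 24SD minus HC difference was +0.03 ± 0.21. Mtdh, a membrane-associated regulator of signalling named for metastasis adhesion, was of the first kind: 750 to 1297.4 in 24SD arrays with a median of 1064.3, 1112.1 to 1691.4 in 24NES arrays with a median of 1286.1, and 900.1 to 1395.6 in HC arrays with a median of 1103.7. The 24SD and HC ranges of Mtdh overlapped over most of their length and the 24NES arrays reached higher.

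**Figure D2:**
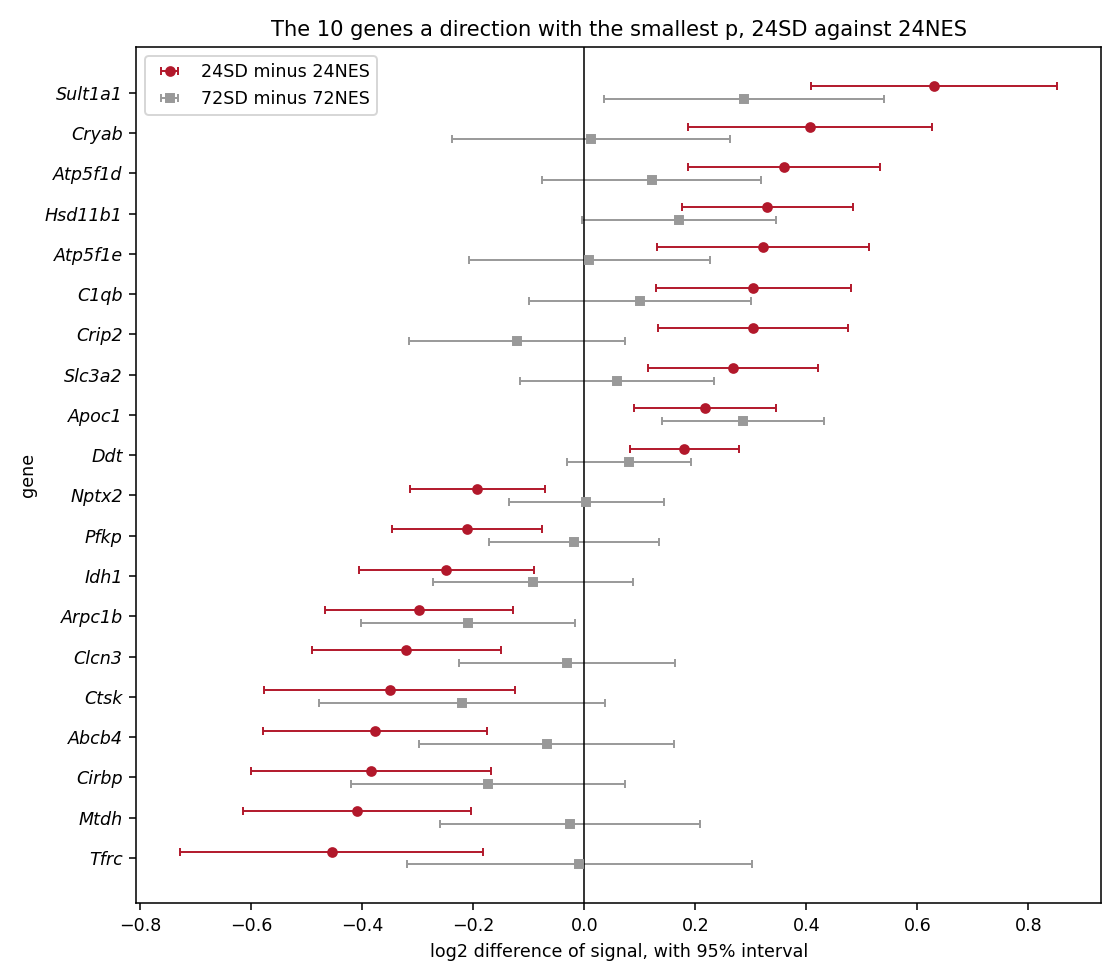
Log2 difference with its 95% interval (horizontal axis) for the 10 genes in each direction with the smallest p, 24SD minus 24NES (circles) and 72SD minus 72NES (squares). Sult1a1 at +0.63 is the only one that passed, and for Cryab, Crip2, Tfrc and Mtdh the 72-hour intervals include zero.

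At 72 hours the same contrast gave 0 called probe sets and 518 (7.39%) at an unadjusted p of 0.05. The difference between the 24-hour and 72-hour effects gave 0 at an adjusted and 373 (5.32%) at an unadjusted p of 0.05, so that none of the 20 genes was shown to differ between durations. Among them Crip2 had the smallest p of that difference (+0.30 at 24 hours, -0.12 at 72 hours, unadjusted p = 0.00205), and Apoc1 gave +0.22 ± 0.06 at 24 hours and +0.29 ± 0.07 at 72 hours (unadjusted p = 0.000308).

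Only 1 probe set separated the groups without overlap, and it did not pass the test. Tnfrsf11b, which encodes osteoprotegerin, a decoy receptor of the TNF receptor family, was 111.2, 167.8, 228.8, 291.8, 132.5, 208.3, 274.9 and 222.9 in the 24SD arrays, against 328.7 to 626.9 in the 24NES arrays with a median of 477.15. All 24SD arrays were thus below all 24NES arrays, as in 0.0143% of probe sets in that direction and 0% in the other. Its HC arrays spread over both ranges, 114.1 to 480.2, its mean signal was among the dimmer ones, and the difference was -1.20 ± 0.27 (adjusted p = 0.141).

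Immediate early genes had the lowest median of the 37 gene lists. Of 60 probe sets (26 genes), 1 was higher and 9 lower at an unadjusted p of 0.05, against 2.54% higher and 3.73% lower over all probe sets, and the median was -0.10. Among the brighter probe sets 33 of 38 were negative with a median of -0.14, where 1759 of all 3503 were negative. Without the array of animal 58, 29 of the 38 were negative. The probe sets are not independent of each other, since Homer1 alone has 6 and Bdnf 7. All 6 of Homer1 were negative, while those of Bdnf were 5 negative and 2 positive. The 9 lower ones were those of the orphan nuclear receptors Nr4a1 (-0.33 ± 0.13) and Nr4a2 (-0.28 ± 0.11), the zinc-finger factors Egr1 (-0.24 ± 0.09 and -0.25 ± 0.11) and Egr2 (-0.61 ± 0.24), the synaptic protein Arc (-0.29 ± 0.11), the scaffold Homer1 (-0.33 ± 0.13), the neurotrophin Bdnf (-0.24 ± 0.10) and Nptx2, and the higher one was the Fos-family gene Fosl2 (+0.38 ± 0.14). None passed after adjustment over all probe sets (adjusted p 0.54 to 0.706).

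Arc was 4061.6 to 8064.5 in 24SD arrays with a median of 6869.6, 6669.1 to 11828 in 24NES arrays with a median of 7971, and 6244.6 to 7897.2 in HC arrays with a median of 7028.2. The 24SD and 24NES ranges of Arc overlapped widely, and the highest 24NES array was that of animal 58. Homer1 (AF093268_s_at) was 1218.1 to 1717.1 in 24SD arrays with a median of 1478.8, 1485.2 to 2468.3 in 24NES arrays with a median of 1715.4, and 1373 to 1758.7 in HC arrays with a median of 1501.2. All 8 24SD arrays of Homer1 lay below the 24NES mean, while its other 5 probe sets had smaller differences of the same sign. Nptx2 (S82649_s_at) was 2977.5 to 4098.7 in 24SD arrays with a median of 3601.3, 3827.4 to 4344.7 in 24NES arrays with a median of 4075, and 3428.2 to 4136.2 in HC arrays with a median of 3517.6. Over the whole list the median was -0.06 for 24SD minus HC and +0.11 for 24NES minus HC, beside -0.02 and -0.01 over all probe sets. At 72 hours the median of 72SD minus 72NES was +0.02, and in cohort 2 the median of 24SD minus HC was -0.11. Without the array of animal 58 the counts were 2 higher and 8 lower with a median of -0.12, and within the upper β-actin set 1 higher and 9 lower with a median of -0.14. Within the lower set the median was -0.10.

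**Figure D3:**
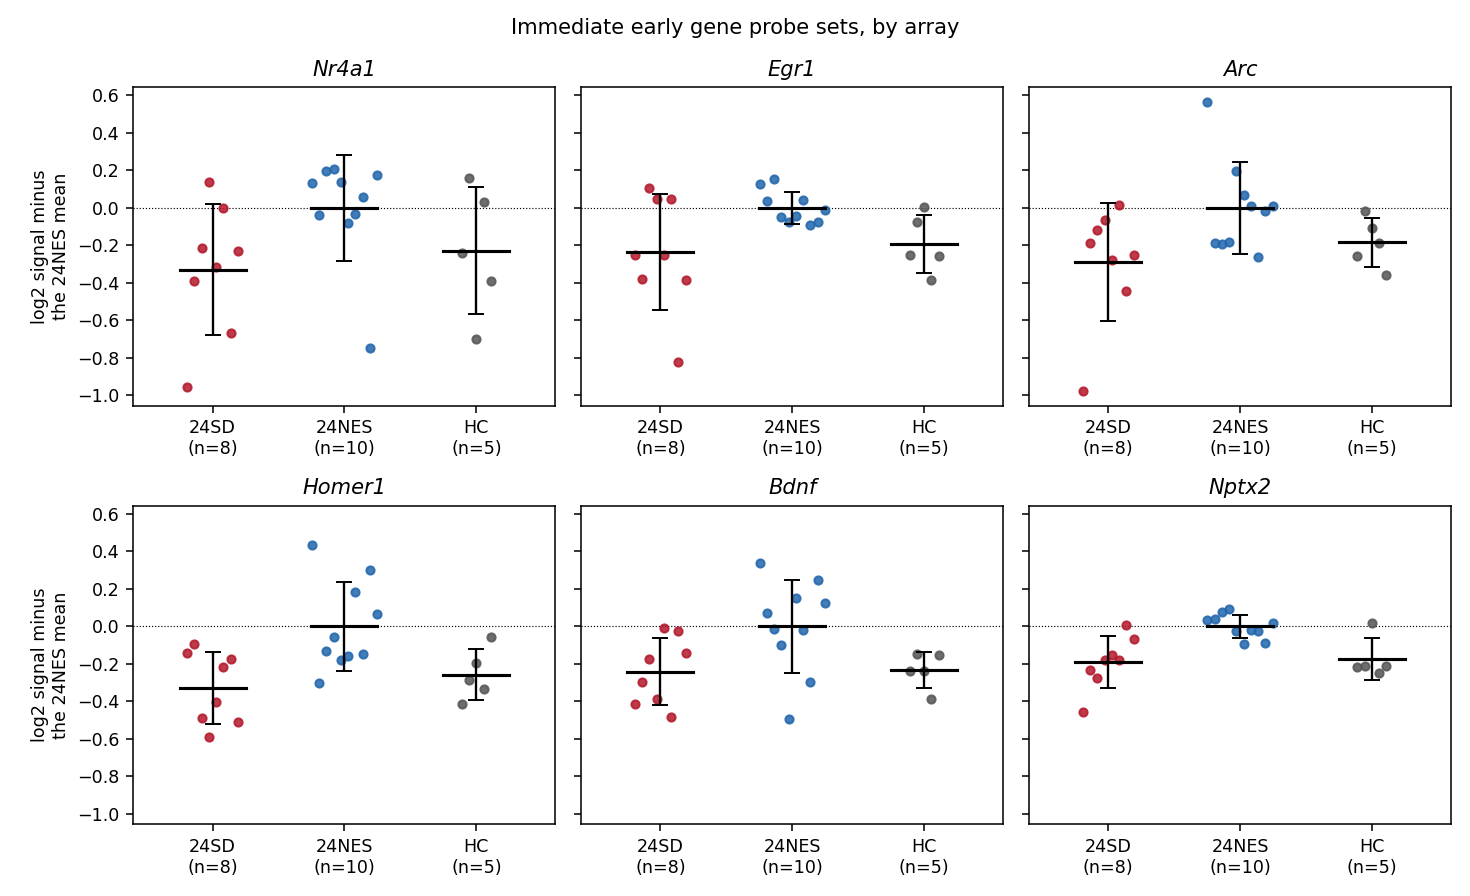
Log2 signal minus the 24NES mean (vertical axis) for 6 immediate early gene probe sets in each 24SD, 24NES and HC array. Points are arrays, wide bars means and error bars SD. The 24SD means lie 0.19 to 0.33 below the 24NES means with overlapping points in every panel.

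Of 52 presynaptic vesicle probe sets 1 was higher (Rab3a, a vesicle GTPase) and 0 lower, with as many positive as negative signs (26 each). Of 44 postsynaptic scaffold and adhesion probe sets 0 were higher and 4 lower (9.09%, against 6.27% over all probe sets), with a median of -0.04. Among the lower were Homer1 again and Kalrn, a guanine nucleotide exchange factor of spines (-0.43). Without the array of animal 58 the list gave 0 higher and 2 lower, and with the β-actin ratio as a block 2 higher and 6 lower. At 72 hours it gave 5 higher and 0 lower in 72SD against 72NES, where all 7006 gave 328 and 190. Its median there was +0.19. Of 30 neuropeptide probe sets 1 was higher and 4 lower, 16.7% against 6.27% over all probe sets. Adcyap1, the precursor of PACAP, was lower at all 3 of its probe sets (-0.25, -0.43 and -0.24), Penk (proenkephalin) was lower by 0.21, and Cck (cholecystokinin) was higher by 0.15. Of 48 potassium channel probe sets 1 was higher and 4 lower (10.4%). The 21 probe sets of GABA-A receptors and GABA synthesis held none at an unadjusted p of 0.05.

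Clock genes, known to respond to sleep loss in rodent forebrain, did not separate 24SD from 24NES. None of 17 probe sets reached an unadjusted p of 0.05, and the median was -0.05. Per2, a repressor of the clock, was 554.1 to 1002.7 in 24SD arrays with a median of 810.05, 599.6 to 1342.1 in 24NES arrays with a median of 852.3, and 471.1 to 578.3 in HC arrays with a median of 536.3. Both exposed groups lay above HC, by 0.60 ± 0.17 in 24SD (adjusted p = 0.133) and by 0.75 ± 0.16 in 24NES (adjusted p = 0.0214). They differed from each other by -0.15 ± 0.14, with a 95% interval of -0.43 to 0.14.

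Astrocyte markers gave 7 higher and 0 lower of 31 probe sets (22.6%, against 6.27% over all probe sets) with a median of +0.08. These were 3 probe sets of Glul, both of the glycolytic aldolase Aldoc (+0.23 ± 0.07 and +0.27 ± 0.11), Ndrg2 (+0.21 ± 0.08) and the apolipoprotein Apoe (+0.20 ± 0.10). Those of Glul were also counted in the glucocorticoid-induced list. Of the 31 probe sets 22 were positive and 9 negative. Over the list the median was 0.00 for 24SD minus HC and -0.11 for 24NES minus HC, and +0.20 for 72SD minus 72NES. In bulk tissue fewer astrocytes and less of each transcript per astrocyte cannot be told apart. Within the upper β-actin set the count was 12 higher and 0 lower with a median of +0.17, and within the lower set the median was -0.09. Microglial and immune markers gave 5 higher and 1 lower of 44 (13.6%) with a median of 0.01. The higher ones were both C1qb probe sets and a dim one of C1qc, of the complement initiator, the class II gene RT1-Ba and the protease Ctsb, and the lower one was P2ry12, a purine receptor of resting microglia (-0.37). Myelin genes gave 1 higher, Cryab, and 1 lower of 25 (8%, near the 6.27% over all probe sets). Blood and dentate granule cell markers gave none in either direction.

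Cytosolic ribosomal proteins gave 8 higher and 0 lower of 60 probe sets (13.3%, against 6.27% over all probe sets) with a median of +0.05. Of the 60, 43 had a positive sign, where 3235 of all 7006 did. Their differences were small: Rpl18 was at +0.31 ± 0.10, Rpsa at +0.19 ± 0.06 and +0.21 ± 0.10, Rpl13a at +0.19 ± 0.07, and Rpl26 at +0.41 ± 0.15. Rpl18 ran between 5010.5 and 7825.9 in 24SD arrays and between 3180 and 5510.5 in 24NES arrays, the lowest being that of animal 58. Without that array 8 were higher and 0 lower with a median of +0.07, and within the lower β-actin set the median was -0.04. The oxidative phosphorylation list gave 4 higher and 0 lower of 45 (8.89%, against 6.27% over all probe sets) with a median of +0.03. The higher were both probe sets of Atp5f1d, 1 of Atp5f1e, and Cox4i2, a cytochrome oxidase subunit. Translation factors gave 1 higher and 2 lower of 39 (7.69%).

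Cholesterol synthesis gave 1 higher and 4 lower of 32 probe sets (15.6%, against 6.27% over all probe sets) with a median of -0.08. The lower ones were the sterol sensor partner Insig1 (-0.33 ± 0.12), the squalene synthase Fdft1 at 2 of its 4 probe sets (-0.29 ± 0.10 and -0.31 ± 0.15) and the isopentenyl diphosphate isomerase Idi1 (-0.37 ± 0.15), and the higher one was the mevalonate kinase Mvk. Insig1 ran between 1548.8 and 2421.1 in 24SD arrays, between 1766 and 3179.6 in 24NES arrays and between 1227.3 and 1786.9 in HC arrays, so that both exposed groups lay mostly above HC and 24NES highest. RNA-binding and splicing genes gave 0 higher and 4 lower of 35 (11.4%) with a median of -0.08, the lower being Cirbp, Hnrnpd and Srsf5 at 2 probe sets. Heat shock genes gave 4 higher and 2 lower of 36 (16.7%) with a median of -0.01. The higher were Cryab, Hspb1, Fkbp4 and the factor Hsf1, and the lower were 2 of the 3 probe sets of Hspa9, the mitochondrial chaperone. The endoplasmic reticulum list gave 1 higher, the pseudokinase Trib3, and 0 lower of 29.

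**Figure D4:**
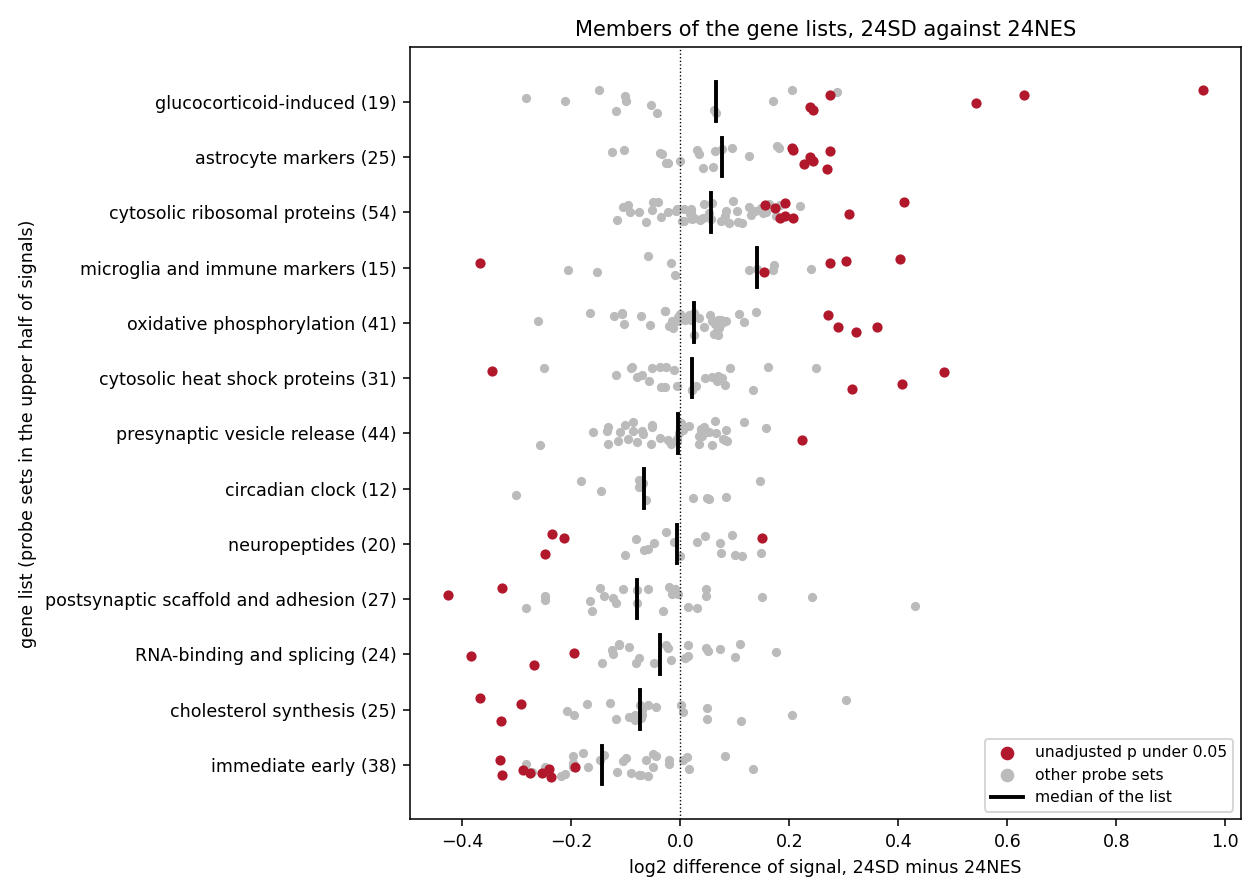
Log2 difference, 24SD minus 24NES (horizontal axis), of the brighter probe sets of 13 gene lists (number of probe sets in parentheses), with the median of each list as a bar. Red points had an unadjusted p under 0.05, and of 38 immediate early probe sets 33 lie left of zero (29 without the array of animal 58).

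The probe sets called against HC show the 2 exposures side by side. In 24SD 19 probe sets were called against HC (0.271%), 12 higher (0.171%) and 7 lower (0.0999%), and in 24NES 25 (0.357%), 22 higher (0.314%) and 3 lower (0.0428%). These counts rest on few HC arrays: without 1 of the 5 they were 4 to 12 for 24SD and 9 to 24 for 24NES. Without the 4 24SD and 24NES arrays that scored highest on the second component of within-group variance they were 46 and 217. That removal was uneven, since HC array 3, with a score of 5.58, stayed in while 24SD array 25, at 5.62, was left out. The 19 and 25 called probe sets together make 39, 30 of them among the brighter. Over these 30 the 24SD minus 24NES difference ran between -0.38 for Cirbp and +0.63 for Sult1a1, for 10 it was within 0.1 of zero, and for 10 the unadjusted p was under 0.05 (4 higher, 6 lower). The HC arrays are common to both contrasts and the 39 were chosen by contrasts that use the 24SD and 24NES arrays, so these counts are a description. Psma2, a subunit of the 20S proteasome, was 0.57 ± 0.11 above HC in 24SD and 0.56 ± 0.11 above HC in 24NES, with a difference of 0.00 ± 0.09 between them, but its other 2 probe sets were only 0.10 and 0.06 above HC in 24SD. Gstp1, a glutathione transferase, was -0.64 ± 0.14 in 24SD and -0.63 ± 0.13 in 24NES, with a difference of -0.00 ± 0.11. Rbp4, the retinol carrier, was +0.67 ± 0.14 in 24SD and +0.70 ± 0.14 in 24NES, and the pentraxin Nptx1 +0.70 ± 0.17 and +0.76 ± 0.16. Others leaned to one side without passing. Cadps, which primes dense-core vesicles, was +0.20 ± 0.09 in 24SD and +0.42 ± 0.09 in 24NES (called only there), and differed between 24SD and 24NES by -0.22 ± 0.07 (adjusted p = 0.591). Phldb1 was -0.49 ± 0.10 in 24SD (called) and -0.25 ± 0.09 in 24NES, with a difference of -0.23 ± 0.08 (adjusted p = 0.624). In cohort 2, 0 probe sets were called in 24SD against HC and 659 (9.41%) had an unadjusted p under 0.05.

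**Figure D5:**
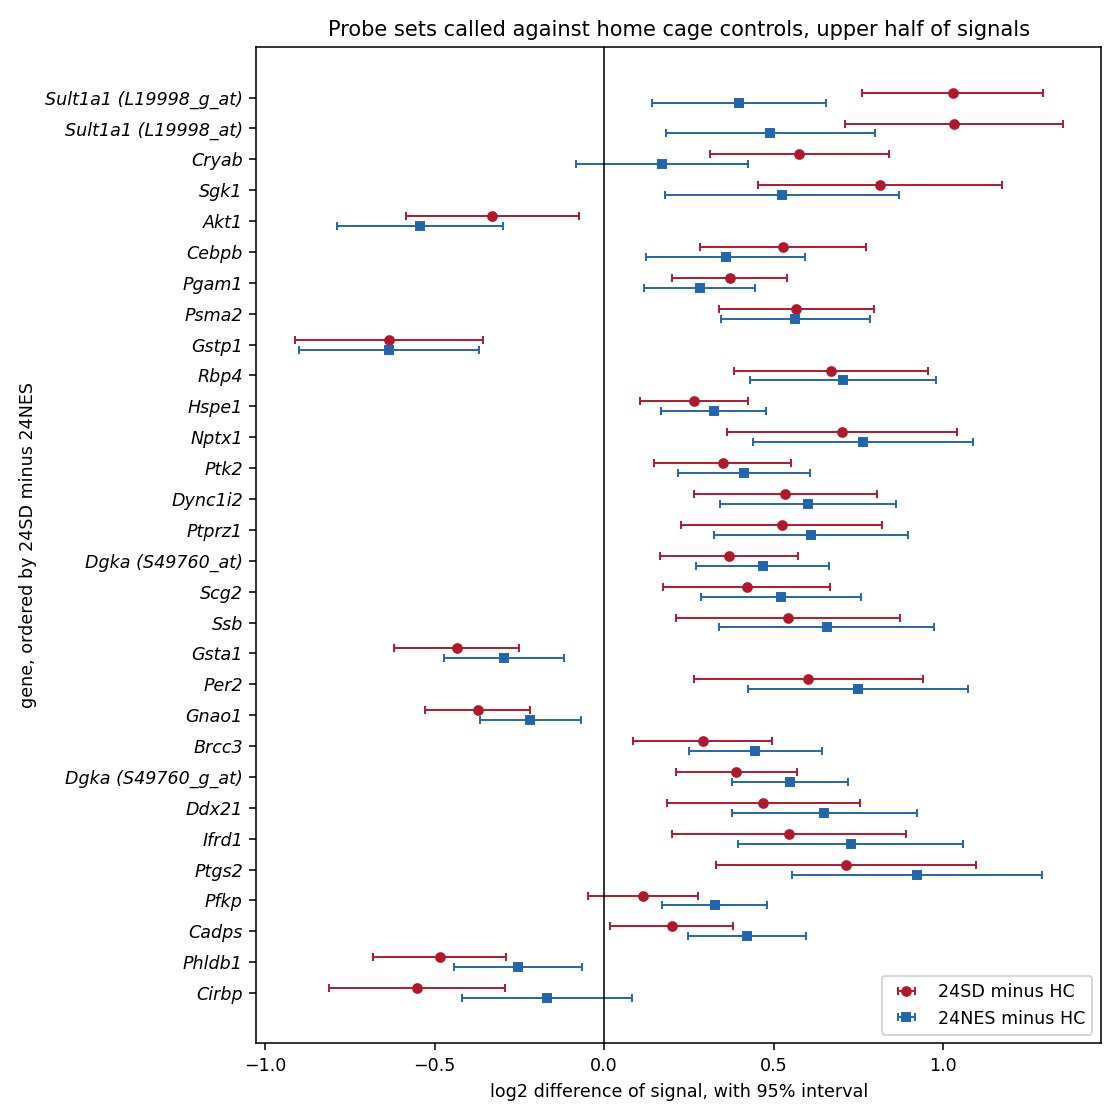
Log2 difference from HC with its 95% interval (horizontal axis) for the 30 brighter probe sets called in either exposure, 24SD minus HC (circles) above 24NES minus HC (squares), ordered by 24SD minus 24NES. The pairs of intervals overlap widely for most genes, and Sult1a1 at the top and Cirbp at the bottom have the widest gaps.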

How the data were processed

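RNA from CA1 of single animals was hybridised to Affymetrix RGU34A arrays by the authors, and the deposited values are MAS5 signal intensity scaled to a common target; the version of MAS5 is not given in the sources used here. No replicates were pooled. Signals were floored at 1 and log2 transformed. Leaving out 59 controls, 308 probe sets with several gene symbols and 1426 with none, 7006 were tested. Symbols were updated by gene number (99.7% matched to RefSeq, GRCr8). A model with the 5 group means of the 37 cohort 1 arrays was fitted with limma 3.58.1 in R 4.3.3 (eBayes with a trend on signal), cohort 2 (32 arrays) separately, with Benjamini-Hochberg adjustment over 7006. This departs from the study's 1-way ANOVA, which is an alternative here. Scripts were tested on simulated data. The members and gene lists were chosen with earlier results of these data known. Named genes were those with the smallest p, up to 10 in each direction, among the brighter probe sets, and the 4 smallest p of each list. Other list members, Tnfrsf11b and the genes called against HC were named after their values were seen. Lists carry counts and medians, and no test. Alternatives varied scaling, floor, filter, moderation and samples, and those on the β-actin ratio (limit 1.2) and on 4 arrays apart on the second component were chosen after seeing the data. Figures were drawn with matplotlib 3.10.9.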

Additional observations from a re-analysis of the deposited data

Results flagged for a closer look

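In 75 groups of values checked (20 genes with the smallest p, the second Sult1a1 probe set and 4 array measures, in 24SD, 24NES and HC), 10 held an array far from the others of its group. Chance alone gives about 1 in 20. Array 24 of the 24SD group was lowest in Hsd11b1 (5384.2, next 6081.3), Clcn3 (2269, next 2922.2) and Idh1 (1071.1, next 1288.9). Array 18 was highest in Atp5f1d (12442, next 10557) and array 19 in Ctsk (723, next 545.3). In 24NES, array 66 was lowest in Sult1a1 (1029.8, next 1501.4), array 58 lowest in Hsd11b1 (3414.2, next 4735.4) and array 60 had the highest GAPDH 3′/5′ ratio (1.09, next 1.02). In HC, array 2 was lowest in Slc3a2 (2878.4, next 3924.3) and array 3 highest in Nptx2 (4136.2, next 3519.6).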

How the results depend on the processing

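No paired analysis was possible because subject numbers are not shared between groups. The single call of 24SD against 24NES, Sult1a1, was kept in the rescaled, floored, filtered and differently moderated fits of 7006 or fewer probe sets, and each of the 18 single-array omissions left 1 to 2 calls, the second being L3hypdh, a dim probe set (without 24NES array 58 or 62). With every probe set other than controls there were 3 calls (Sult1a1, rc_AI176456_at and AF028784mRNA#2_at), and with only the 18 arrays 3 (Sult1a1, L3hypdh and Tnfrsf11b). The methods' 1-way ANOVA of signals gave 0 calls after Benjamini-Hochberg adjustment without removal of outliers (420 at an unadjusted p of 0.05; Sult1a1 adjusted p = 0.0821) and 6 with values over 2 SD from the group mean removed, among them Sult1a1 and Hsd11b1. Within the upper and within the lower β-actin set it gave 0 calls each (515 and 317 at an unadjusted p of 0.05 by limma). A setting tried before those on the β-actin ratio left out 24SD arrays 24 and 25 and 24NES arrays 66 and 67. They scored highest of the 18 on the second component of within-group variance. HC array 3 scored 5.58, against 5.62 for 24SD array 25, and was kept, so the removal was uneven. By limma there were 0 calls for 24SD against 24NES (504 at an unadjusted p of 0.05), with Sult1a1 at +0.55 (adjusted p = 0.0975). Calls were 46 for 24SD against HC and 217 for 24NES against HC. With array 58 also left out these were 1 (Sult1a1 +0.60, adjusted p = 0.0213), 68 and 384. For 24SD against HC, calls were 19, but 12 under median centring, 9 with the brightest probe set per gene, 11 without the trend, 40 in the upper β-actin set, 0 in the lower one, and 31 with the ratio as a block and without array 58, and 4 to 12 when 1 HC array was left out (4 without array 3 or 5). For 24NES against HC, calls were 25, but 42 with the ratio as a block, 56 with the block and without array 58, 139 in the upper and 0 in the lower β-actin set, and 9 to 24 when 1 HC array was left out (9 without array 4). The contrast of 72SD with 72NES gave 0 to 0 over its 14 omissions. Of 749 values of named genes under the alternatives 0 reversed. The side of the threshold says little here, since all but Sult1a1 had an adjusted p of 0.177 or more, and Sult1a1 lost its call in 4 settings. The median of all differences was -0.01 as deposited and 0.01 after quantile normalization or median centring. The cause of these changes was not tested.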
